A study of Mus musculus with 20 samples.

Results

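The 10 genes described here mark vascular endothelium, the cell layer that lines blood vessels: Kdr, Flt1, Tek, Tie1, Pecam1, Cldn5, Esam, Vwf, Emcn and Eng. They were chosen for their known expression in that cell type, with earlier results of these data known. They are 10 of the 37620 genes listed in the expression table. Each symbol matched 1 Ensembl identifier. RPKM stands for reads per kilobase of exon, corrected for library size. Of the 10 genes, 7 reached a mean of 0 log2 RPKM in at least 1 group and were among the 14529 genes tested. Tie1, Cldn5 and Esam did not.

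Whole dorsal root ganglia (DRG), which hold the cell bodies of sensory neurons with their glia, vessels and connective tissue sheath, were taken from 10 C57Bl6 mice in late gestation (E18.5). Lumbar DRG (L4-5) and sacral DRG (L6-S1) of each of 5 male and 5 female embryos gave 1 library apiece, which made 4 groups of 5 libraries. No treatment or altered allele is named in the labels of any group. The study compared the spinal levels because neurons that supply the pelvic organs lie in sacral but not in lumbar DRG, and it compared the sexes at each level. The tissue was whole ganglion, so fewer endothelial cells and less RNA of a gene per cell cannot be told apart.

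Endothelial cells read the growth factor VEGF through the receptors Kdr and Flt1, and they read the angiopoietins through Tek, whose paralog Tie1 is an orphan receptor of the same family. Pecam1, Esam and Cldn5 sit in the contacts between neighbouring endothelial cells, with Cldn5 the main tight junction claudin of vessels that form a barrier. Vwf is a clotting protein stored in endothelial cells and platelets, Emcn is a sialomucin of capillaries and veins, and Eng is a co-receptor for BMP9 and TGF-beta. Transcription factors of the ETS family bind a GGAA core and are known for their part in the expression of endothelial genes.

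Promoter sequences of 7 of the 10 genes were found in a RefSeq table (GRCm38.p6), and the 250 bases before the start of transcription are shown for the gene that differed between spinal levels, Tek, and for a pair that gave no call, the main VEGF receptor Kdr and Emcn. Each stretch matched the mm9 genome, the build of the expression table, at 1 place: Tek at chr4:94405730-94405979 on the plus strand, Kdr at chr5:76374481-76374730 on the minus strand and Emcn at chr3:137003792-137004041 on the plus strand. Capitals mark AGGAA on either strand (AGGAA or TTCCT), a sequence that holds the ETS core.
Tek: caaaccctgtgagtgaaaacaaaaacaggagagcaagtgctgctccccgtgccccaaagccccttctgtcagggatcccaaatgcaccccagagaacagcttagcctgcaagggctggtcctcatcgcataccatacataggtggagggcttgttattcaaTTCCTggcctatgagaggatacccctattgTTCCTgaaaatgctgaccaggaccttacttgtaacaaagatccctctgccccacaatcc
Kdr: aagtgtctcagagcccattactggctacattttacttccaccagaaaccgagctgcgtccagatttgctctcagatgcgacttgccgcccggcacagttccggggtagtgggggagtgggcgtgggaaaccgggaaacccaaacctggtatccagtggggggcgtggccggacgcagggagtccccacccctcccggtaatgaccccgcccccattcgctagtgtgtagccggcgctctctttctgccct
Emcn: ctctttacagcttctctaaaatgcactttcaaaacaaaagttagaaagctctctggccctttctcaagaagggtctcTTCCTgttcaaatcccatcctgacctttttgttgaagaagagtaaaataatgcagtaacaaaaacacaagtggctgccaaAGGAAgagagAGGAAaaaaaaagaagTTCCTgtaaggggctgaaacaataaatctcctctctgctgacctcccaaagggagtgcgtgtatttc
The Tek stretch held 2 matches, 89 and 59 bases before the start, the Emcn stretch held 4 and the Kdr stretch none. The shorter GGAA core alone was not marked, and it does occur in the Kdr stretch. Of the 7 members with a promoter, 5 held at least 1 match, and 60.3% of all 32851 promoters in the table did so over the same 250 bases. A TATAAA element was found in 1 of the 7, Flt1, and in 12.4% of all promoters.

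Every one of the 10 genes had reads in all 20 libraries, from 2 to 48 per library for Cldn5 and from 173 to 660 for Tek. In every library the median of all genes with a value was 0.93 log2 RPKM. On this length-corrected scale the means of Pecam1, Emcn, Kdr, Eng and Tek lay above 0.93, and those of the other members below. Pecam1 was the highest, with a mean of 2.12 ± 0.51 log2 RPKM (SD, n = 20), followed by Emcn (1.49 ± 0.27), Kdr (1.40 ± 0.41), Eng (1.40 ± 0.45), Tek (1.28 ± 0.49), Flt1 (0.83 ± 0.31), Vwf (-0.17 ± 0.47), Tie1 (-0.31 ± 0.65), Esam (-0.41 ± 0.60) and Cldn5 (-1.54 ± 1.06). Many neighbours in this order did not differ beyond their spread. Emcn exceeded Kdr by 0.09 ± 0.51, Kdr exceeded Eng by 0.00 ± 0.41, and Eng was above Tek in 10 of 20 libraries. A wider step lay between Flt1 and Vwf, where Flt1 was higher in 20 of 20 libraries. The defining endothelial genes outside the group were present too: Cdh5, the cadherin of endothelial junctions, had a mean of 4.83 log2 RPKM, above each of the 10 genes, while the transcription factor Erg stood at 1.28 and Egfl7 at -0.03. Cldn5 was thus the only member near the limit of detection.

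**Figure D1:**
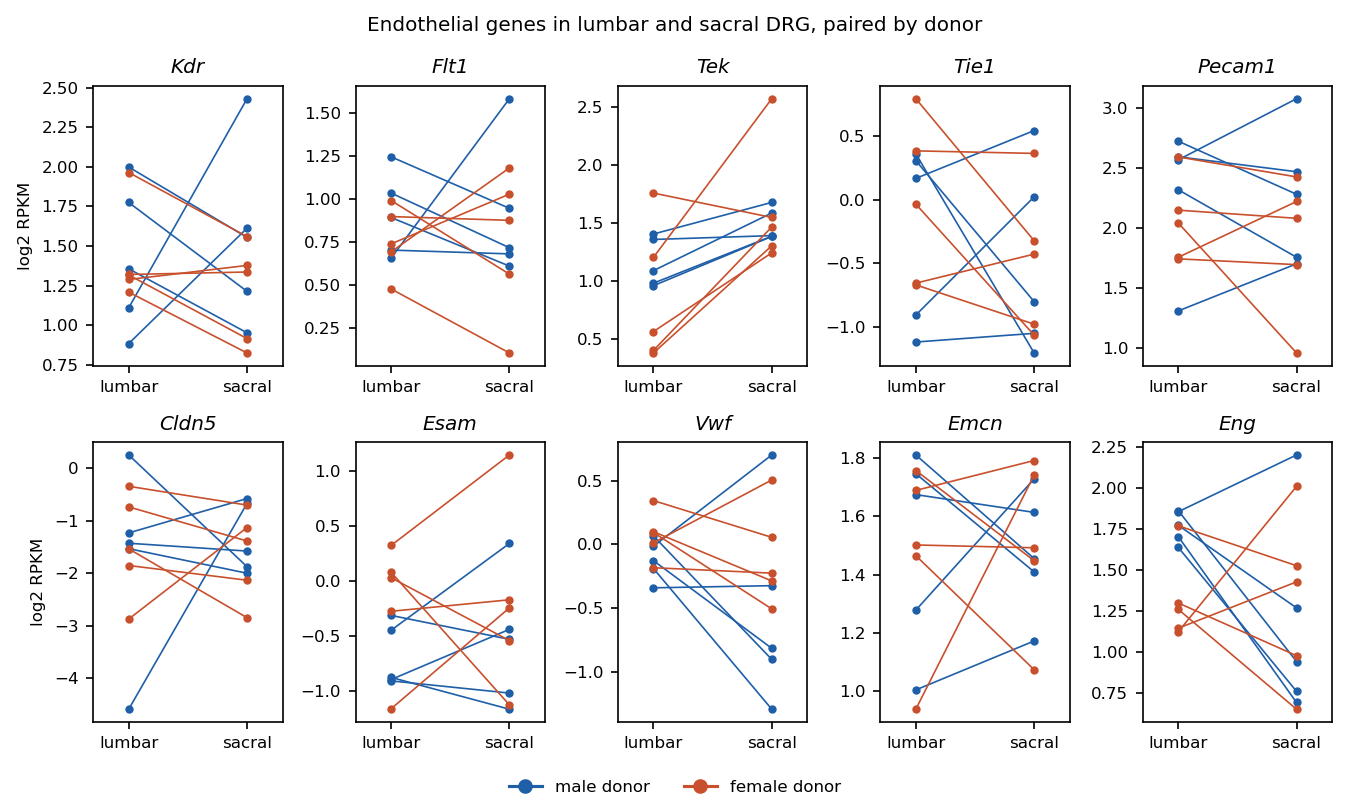
Expression of the 10 endothelial genes (y axis, log2 RPKM, a separate scale in each panel) in lumbar and sacral DRG; each line joins the 2 libraries of 1 donor, blue for males and red for females. In the Tek panel 9 of 10 lines rise from lumbar to sacral, while rising and falling lines are mixed in the other panels.

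Tek was the member that distinguished the spinal levels. In lumbar male DRG its expression was 1.09, 0.98, 1.36, 1.41 and 0.96 log2 RPKM in donors M1, M3, M5, M7 and M8, and in sacral male DRG of the same donors it was 1.59, 1.39, 1.39, 1.68 and 1.38. In lumbar female DRG it was 0.38, 0.57, 1.20, 1.76 and 0.41 in donors F10, F3, F7, F8 and F9, and in sacral female DRG 1.30, 1.24, 2.57, 1.55 and 1.47. The sacral library was the higher in 5 of 5 males and 4 of 5 females, and F8 went the other way. A sacral excess in at least 9 donors was found in 4.68% of all tested genes. Values of the spinal levels overlapped, because lumbar F8 exceeded 9 of the 10 sacral libraries. On the linear scale the mean for males was 2.25 RPKM in lumbar and 2.81 RPKM in sacral DRG, and that for females 1.96 and 3.29 RPKM.

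Tek was upregulated in sacral DRG by 0.54 ± 0.15 (log2 difference ± SE), a 1.46-fold difference with a 95% interval of 1.18 to 1.80 (limma with donor as a block, two-sided, adjusted p = 0.030 over all genes tested). It was the 1 of 7 tested members past the threshold, and 6.73% of all tested genes were past it, 2.7% with higher and 4.03% with lower values in sacral DRG. The call was not stable. With 1 donor left out in turn it was kept without M7 (adjusted p = 0.048) and without F8 (0.0024, difference 0.66), and it was lost without any of the other 8 donors, at adjusted p-values from 0.057 to 0.073 and differences from 0.47 to 0.58. The smallest of these differences, 0.47, was that without F7, whose sacral library held the highest Tek value of all. The call was also lost with no donor block (0.154), with no filter on low values (0.080) and with libraries scaled to nuclear-encoded reads (0.063, difference 0.60).

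The remaining members gave no call between the spinal levels. Of the VEGF receptors, Kdr differed by -0.04 ± 0.16 (95% interval -0.37 to 0.28, adjusted p = 0.884 by limma) and Flt1 by -0.00 ± 0.13 (-0.28 to 0.27, adjusted p = 0.989). Their intervals exclude a change as large as the 0.54 seen for Tek. The junction gene Pecam1 differed by -0.11 ± 0.17 (-0.47 to 0.24, adjusted p = 0.714) and Emcn by 0.01 ± 0.12 (-0.23 to 0.25, adjusted p = 0.982). Vwf differed by -0.28 ± 0.19 (-0.68 to 0.11, adjusted p = 0.366) and Eng by -0.30 ± 0.16 (-0.62 to 0.03, adjusted p = 0.245). Lower values in sacral DRG thus prevailed in 7 of 10 donors for Pecam1, Flt1, Vwf and Eng, without passing the test. Vwf reached the filter in lumbar females alone (mean 0.07 log2 RPKM, beside -0.09 in sacral females). The filter itself therefore favours a lower sacral value for Vwf. The median difference of the 7 members was -0.04, beside -0.05 over all genes tested.

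For the 3 members under the filter the donors were compared with an exact sign-flip permutation test (two-sided, 10 donors, adjusted over these 3 genes). Tie1, the paralog of Tek, was higher in sacral DRG of 4 of 10 donors, with a mean difference of -0.35 ± 0.81 (SD), exact p = 0.209 and adjusted p = 0.627. Esam was higher in 5 of 10 donors (0.07 ± 0.69, exact p = 0.754, adjusted p = 0.883) and Cldn5 in 3 of 10 (0.10 ± 1.69, exact p = 0.883, adjusted p = 0.883). The spread of Cldn5 came from libraries with few reads, since the value of lumbar M8 rested on 2 reads, and depth limits what can be said of this gene. The smallest p this test allows is 0.00195.

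**Figure D2:**
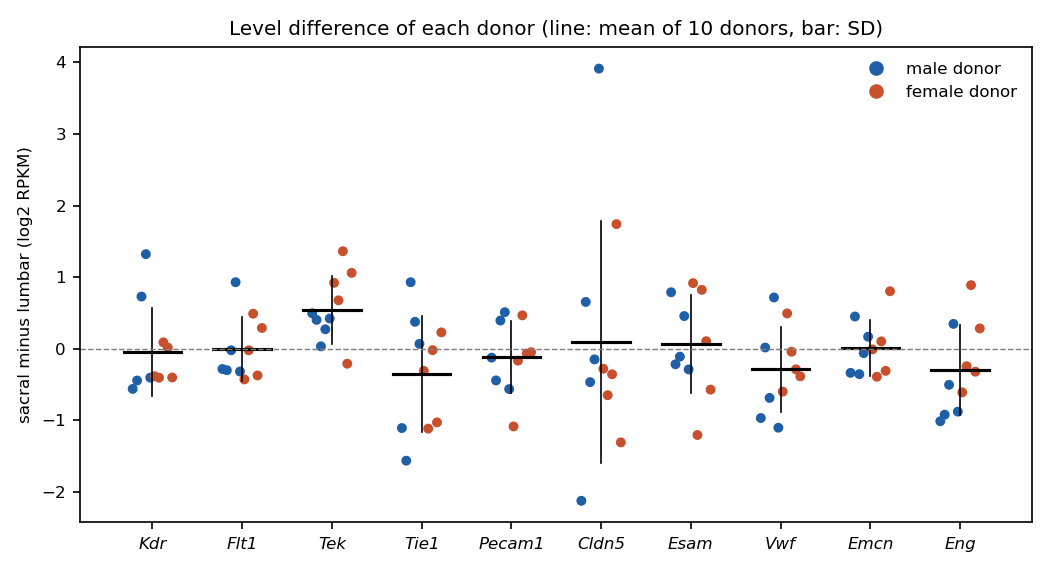
Sacral minus lumbar difference of each donor (y axis, log2 RPKM) for the 10 endothelial genes, with males in blue and females in red; the thick line is the mean and the thin bar the SD of 10 donors. Tek has a mean of 0.54 with 1 donor below 0, and the means of the VEGF receptors Kdr and Flt1 lie at -0.04 and -0.00.

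Genes for ligands of Tek were upregulated too. Of the 5 genes of the angiopoietin list, 4 were tested and 2 rose, which were Angpt1, the activating ligand made by cells around the vessel, and Angpt2, the ligand known to be released by endothelium during remodelling. Angpt1 ranged from 0.82 to 2.01 log2 RPKM in lumbar and from 1.69 to 2.54 in sacral libraries. It was upregulated in sacral DRG by 0.63 ± 0.13 (adjusted p = 0.0086 by limma) and was higher in 8 of 10 donors, and the call held in 10 of 10 fits that left out a donor. Angpt2 ranged from 0.11 to 1.38 in lumbar and from 0.93 to 2.12 in sacral libraries. It was upregulated by 0.58 ± 0.14 (adjusted p = 0.018), with 8 of 10 donors higher, and was kept in 7 of 10 such fits, with adjusted p-values up to 0.054. By sex the Angpt2 difference was 0.92 ± 0.20 in females (adjusted p = 0.031 by limma) and 0.25 ± 0.20 in males (adjusted p = 0.679). The difference between the sexes was not called (0.67 ± 0.28, adjusted p = 0.995). Donors M7 and F8 had lower Angpt1 and Angpt2 in the sacral library, and F8 was also the donor with lower Tek. Ptprb, the endothelial phosphatase that acts on Tek, gave no call (-0.15 ± 0.18, adjusted p = 0.634), nor did Angptl1 (0.17 ± 0.25, adjusted p = 0.694).

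Among the 8 genes of the VEGF list, 7 were tested and 2 rose. These were Vegfd, a ligand of the lymphatic receptor Flt4 (0.75 ± 0.19, adjusted p = 0.026), and the neuropilin Nrp2 (0.41 ± 0.11, adjusted p = 0.033). Vegfa, the main ligand of Kdr and Flt1, gave 0.09 ± 0.09 (adjusted p = 0.564), and Flt4 itself 0.05 ± 0.17 (adjusted p = 0.887). With a donor left out, Vegfd was called in 5 of 10 fits and Nrp2 in 2 of 10.

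Of 24 other pan-endothelial genes, 20 were tested, with a median difference of -0.15. Cdh5 was upregulated in sacral DRG by 0.46 ± 0.12 (adjusted p = 0.023 by limma, 9 of 10 donors, kept in 7 of 10 fits without a donor), and the membrane protein gene Tmem204 was lower by -0.75 ± 0.22 (adjusted p = 0.043, kept in 2 of 10 such fits). Tmem204 reached the filter in lumbar DRG alone (mean 0.43 log2 RPKM, beside -0.33 in sacral DRG). For this gene too the filter itself favours a lower sacral value. The other 18 gave no call. Among the venous genes Ephb4 rose (0.41 ± 0.10, adjusted p = 0.023). In the barrier list Abcb1a, a drug efflux pump, rose (0.90 ± 0.22, adjusted p = 0.022) and Mfsd2a, a lipid transporter of barrier endothelium, fell (-0.61 ± 0.17, adjusted p = 0.037). None of 7 Notch and arterial genes, 5 tip cell genes and 11 genes of the BMP and TGF-beta pathway of Eng was called, and of 10 tested mural cell genes only Anpep rose (0.64 ± 0.15, adjusted p = 0.015). Lyve1, found on lymphatic endothelium and on some macrophages, rose by 0.58 ± 0.14 (adjusted p = 0.016), as did the macrophage gene Mrc1 (0.62 ± 0.15, adjusted p = 0.021). Of 5 lymphatic genes 2 were tested, Lyve1 and Pdpn, and Pdpn gave no call (0.43 ± 0.14, adjusted p = 0.078). The lymphatic genes under the filter were mixed and not tested. Prox1 was higher in sacral DRG in 10 of 10 donors, Reln in 2 and Ccl21a in 3. With a donor left out, Mfsd2a was called in 2 of 10 fits, with adjusted p-values up to 0.104, and Ephb4 and Abcb1a in 6 of 10. Lyve1 and Mrc1 were called in 8 of 10 such fits and Anpep in 9 of 10.

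**Figure D3:**
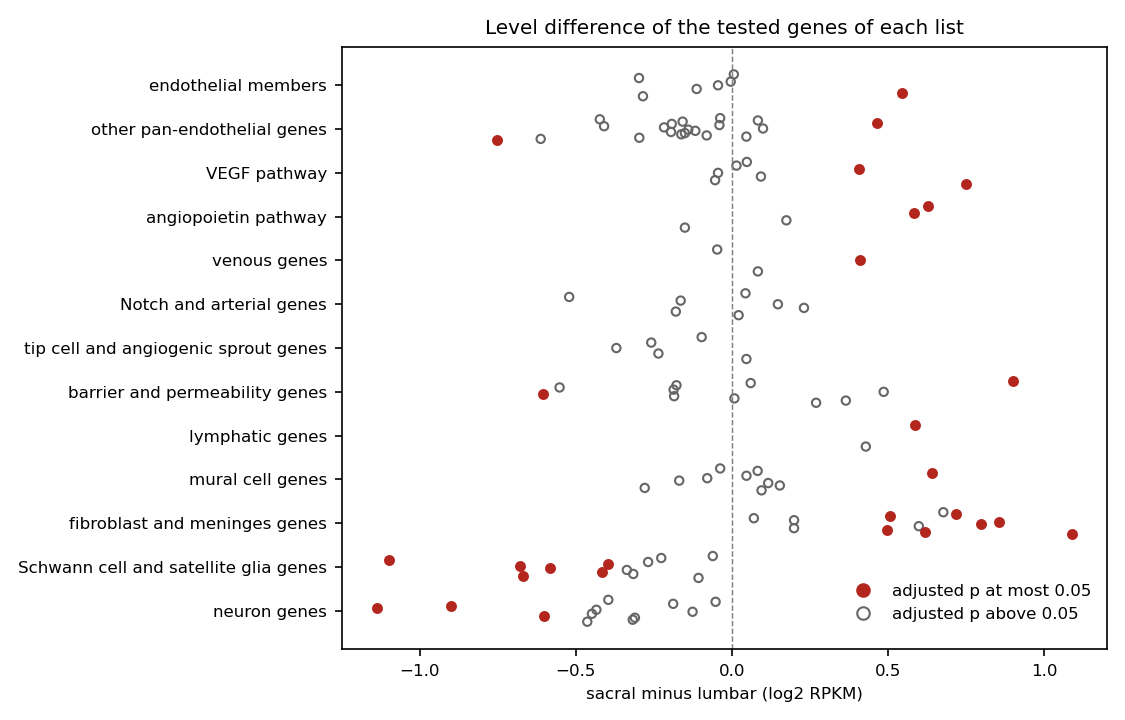
Sacral minus lumbar difference (x axis, log2 RPKM, limma) of each tested gene in 13 gene lists, with filled red points for an adjusted p of at most 0.05. Tek at 0.54 stands apart from the other 6 tested members, and 7 of 12 fibroblast and meninges genes lie to the right as called genes.

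Across the 20 libraries Tek varied little with its fellow members. Its median Pearson correlation with the other 6 tested members was 0.02, from -0.11 with Vwf to 0.50 with Emcn. For Pecam1 the corresponding median was 0.45, for Kdr 0.50 and for Eng 0.55. Emcn was the other member with a low median, at 0.07. These correlations are descriptions over 20 libraries of 10 donors, which share both donors and differences in mitochondrial rRNA. Tek instead varied with the angiopoietins, with r = 0.77 (Spearman's rho 0.71) for Angpt1 and r = 0.74 (rho 0.53) for Angpt2, and with Cdh5 (r = 0.64, rho 0.65). Such values were not particular to the angiopoietins. Genes of other lists reached them too, such as Tjp1 (r = 0.77), Ogn (0.77), Mrc1 (0.77) and the cartilage gene Col11a1 (0.77). Tek, Angpt1, Angpt2 and Cdh5 were all called between the spinal levels, and r over all libraries includes that difference. With group means removed, r with Tek was 0.63 for Angpt1, 0.56 for Angpt2 and 0.49 for Cdh5. Among the other tested members it was 0.61 for Emcn, 0.32 for Eng, 0.12 for Pecam1, 0.10 for Vwf and -0.02 for Kdr and Flt1.

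Connective tissue genes moved with Tek. Its median correlation was 0.68 with the 12 tested fibroblast and meninges genes and -0.78 with the 12 neuron genes, beside -0.16 with all genes tested. For Pecam1 the same medians were -0.07, 0.39 and 0.15, and for Emcn 0.25, -0.46 and -0.12. Between the spinal levels 7 of the 12 fibroblast and meninges genes rose in sacral DRG and none fell, among them Foxc1 (0.85 ± 0.18, adjusted p = 0.0078), Ogn (0.50 ± 0.11, adjusted p = 0.010), Foxc2 (0.80 ± 0.18, adjusted p = 0.011) and Pdgfra (0.62 ± 0.14, adjusted p = 0.012). Their summed expression ranged in males from 260 to 381 RPKM in lumbar and from 370 to 486 RPKM in sacral DRG, and in females from 245 to 539 and from 344 to 734 RPKM. The highest sum, 734, was in sacral F7 and the highest lumbar sum, 539, in lumbar F8, the libraries with the highest Tek at each spinal level. No gene of this list was at 0 reads in a library. With a donor left out, Foxc1, Ogn and Foxc2 were called in 10 of 10 fits and Pdgfra in 9. Col1a1 was called in 8, Twist1 in 5 and Col1a2 in 3 of these 10 fits. None of the 12 neuron genes rose and 3 fell, namely Nefm, Nefl and Snap25, and 6 of the 12 glial genes fell. Among these glial genes Egr2 reached the filter in lumbar males alone, which favours a lower sacral value. Its mean was -0.08 log2 RPKM over all lumbar and -1.18 over all sacral libraries. Of 5 tested cartilage genes 2 rose and none fell by limma, Col2a1 (0.80, adjusted p = 0.0055) and Col11a1 (0.76, adjusted p = 0.0053). Both calls held in 10 of 10 fits that left out a donor. The median correlation of Tek with the 5 cartilage genes was 0.60. The part of connective tissue content in the Tek difference was not tested.

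**Figure D4:**
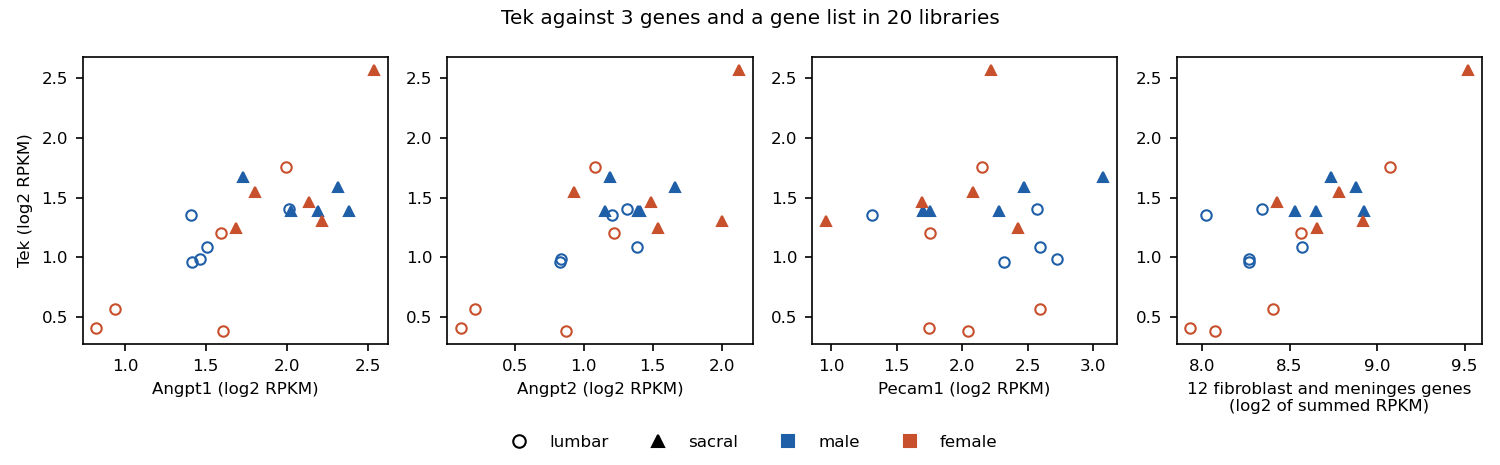
Tek (y axis, log2 RPKM) against Angpt1, Angpt2, Pecam1 and the log2 of the summed RPKM of 12 fibroblast and meninges genes (x axes) in 20 libraries; open circles are lumbar and filled triangles sacral, blue male and red female. Points climb together for Angpt1 (r = 0.77) and Angpt2 (r = 0.74) and are scattered for Pecam1 (r = 0.04).

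The genes whose profile was most like the mean standardized profile of the 7 tested members included several of the vessel wall. The 10 with the highest Pearson correlation over 20 libraries were Ptprb (0.88), Gpr116 (0.87), Abcc9 (0.84), Col4a2 (0.79), Col15a1 (0.78), Hrc (0.77), Cd93 (0.77), Ttn (0.74), Neb (0.73) and Igsf10 (0.73). Ptprb, Gpr116 and Cd93 are endothelial, Abcc9 marks pericytes, and Col4a2 encodes a collagen of basement membranes. Of the 20 other tested pan-endothelial genes, 8 were among the 100 genes most alike out of 14522. The median of the 20 was 0.38. Cdh5 had r = 0.28 (rank 1645), and r was below 0 for Ecscr (-0.07), Egfl7 (-0.13), Rasip1 (-0.14) and Lmo2 (-0.30). Ttn and Neb are sarcomere genes of skeletal muscle. The sum of the skeletal muscle list ranged from 21.6 to 445 RPKM, and sacral M7, the library with the highest member profile, had a sum of 246, while lumbar F8 had 445. The part of muscle tissue in these profiles was not tested.

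Sex was examined at each spinal level. None of the 7 tested members differed between females and males in lumbar DRG or in sacral DRG by limma, where 0.33% and 1.01% of all tested genes did. Nor did any of them reach an unadjusted p under 0.05, beside 8.28% of all tested genes in lumbar and 15.5% in sacral DRG. The largest differences (female minus male) were -0.45 ± 0.27 for Eng in lumbar DRG (95% interval -1.01 to 0.12, adjusted p = 0.706) and 0.44 ± 0.33 for Vwf in sacral DRG (-0.26 to 1.13, adjusted p = 0.530).

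Eng showed the widest gap between the sexes in its spinal difference. It was 1.71, 1.86, 1.77, 1.86 and 1.64 log2 RPKM in lumbar DRG of M1, M3, M5, M7 and M8 and 0.69, 0.94, 1.27, 2.20 and 0.76 in sacral DRG of these donors. In females it was 1.26, 1.77, 1.12, 1.30 and 1.15 in lumbar DRG of F10, F3, F7, F8 and F9 and 0.65, 1.53, 2.01, 0.98 and 1.43 in sacral DRG. Sacral values were thus lower in 4 of 5 males and 3 of 5 females. The spinal difference was -0.59 ± 0.22 in males (adjusted p = 0.250) and -0.00 ± 0.22 in females (adjusted p = 0.999), and the difference between the sexes was 0.59 ± 0.31 (95% interval -0.05 to 1.24, adjusted p = 0.995). Eng shares 61 bases with Fpgs on the opposite strand, 211 with Ak1 on its own strand and others with a pair of small RNA genes, and whether reads were counted by strand is not given in the sources used here, so its values may hold reads of these neighbours.

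Within each sex no member was called between the spinal levels by limma, beside 0.461% of all tested genes in males and 0.881% in females, although 1 member in each sex had an unadjusted p under 0.05: Eng in males, beside 11.9% of all tested genes, and Tek in females, beside 17.5%. Tek differed by 0.32 ± 0.21 in males (adjusted p = 0.572) and by 0.76 ± 0.21 in females (adjusted p = 0.077). Without F8 the female difference was 1.004 and passed the test (adjusted p = 0.0071). With any other donor left out it was not called (adjusted p from 0.079 to 0.271 by limma). Nor was it called with no donor block (0.377), while array weights gave a call (0.0030). The difference between the sexes was 0.44 ± 0.29 (95% interval -0.17 to 1.04, adjusted p = 0.995). For the interaction no gene of the 14529 was called by limma, 470 (3.23%) had an unadjusted p under 0.05, and none of these was a member; limma voom on recovered reads also called none.

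The libraries differed in the share of reads from the 2 mitochondrial rRNA genes, from 18.1% in sacral F3 to 61.4% in lumbar M5, and 52.6% of all tested genes changed with it, 16.4% rising and 36.3% falling. Of the 7 tested members 3 did so by limma. Pecam1 fell by 0.25 ± 0.08 per 10 percentage points (adjusted p = 0.011), while Tek rose by 0.17 ± 0.07 (adjusted p = 0.046) and Emcn by 0.14 ± 0.05 (adjusted p = 0.027). Pecam1 was 1.31 log2 RPKM in lumbar M5, below the 2.32 to 2.72 of the other lumbar males, and without donor M5 its slope was -0.15 (adjusted p = 0.312). It was also no longer called without F3 (adjusted p = 0.051). Tek was no longer called without any one of M3, M8, F3, F7, F8 or F9 (adjusted p from 0.065 to 0.127), and Emcn without F3, F7 or F9 (0.069 to 0.085). Scaling to nuclear-encoded reads moved the median slope of all genes from -0.06 to 0.06, and the slope of Pecam1 was then -0.13 (adjusted p = 0.191). With this share as a covariate the spinal difference of Tek was 0.53 ± 0.15 (adjusted p = 0.034).

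**Figure D5:**
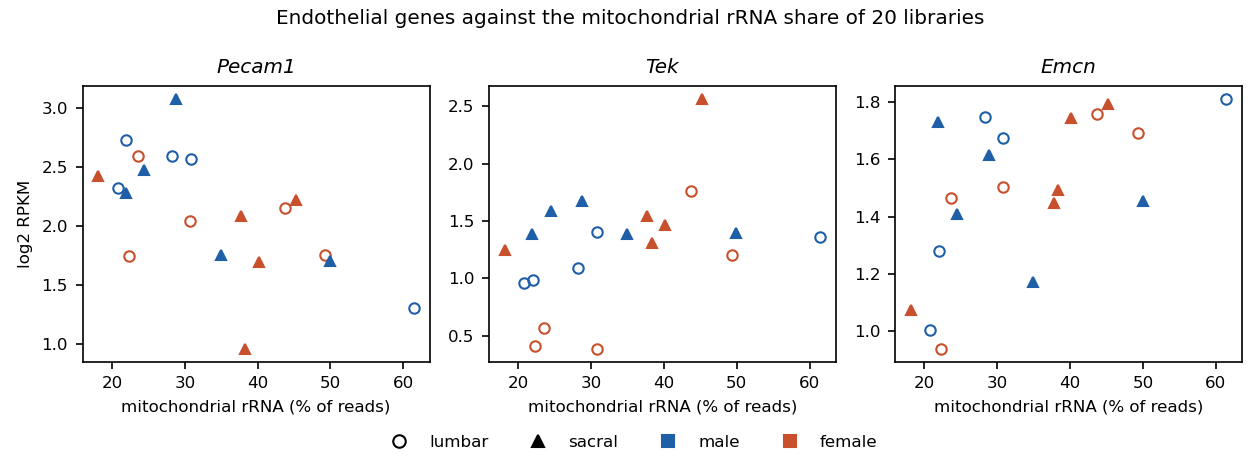
Expression (y axes, log2 RPKM) of Pecam1, Tek and Emcn against the percentage of reads from mitochondrial rRNA (x axes) in 20 libraries; open circles are lumbar and filled triangles sacral, blue male and red female. Pecam1 falls by 0.25 per 10 percentage points with its low lumbar value of 1.31 at 61.4%, and Tek and Emcn rise by 0.17 and 0.14.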

How the data were processed

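Total RNA of whole DRG was amplified to cDNA and sequenced by the authors, who aligned reads to mm9 with Subread, kept unique alignments and used featureCounts with Ensembl genes. The authors describe the deposited values as log2 RPKM after TMM scaling (edgeR) and voom (limma). The values share 1 median in all 20 libraries, and which step set it was not examined. Use of read strand in counting is not given in the sources used here.

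Whole reads were recovered from the values and gene lengths for 28324 genes and summed to 19403023 to 39257771 per library. Amplified libraries carry no molecular identifiers, so read limits cover counting error only. Group, sex and donor came from the labels, and the lumbar and sacral libraries of a donor are from 1 embryo. Deviations from group means of paired libraries correlated at -0.17 to 0.68.

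All 20 libraries were fitted with limma 3.58.1 (R 4.3.3): 4 group means, donor as a block by duplicateCorrelation (0.34) and eBayes with trend. Benjamini-Hochberg adjustment, with a threshold of 0.05, was over 14529 genes whose mean log2 RPKM reached 0 in at least 1 group. On simulated data this fit recovered 45% of 100 genes changed by 0.5 (log2) between the spinal levels and 82% of 100 changed by 1. All members are named; from each list, called genes were counted and up to 4 were named. The members and lists were chosen with earlier results of these data known. A gene list is described by counts and medians alone. Coordinates come from GENCODE M1 (mm9).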

Additional observations from a re-analysis of the deposited data

Results flagged for a closer look

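In 4 of 40 sets of 5 libraries (10 genes in 4 groups) 1 library stood apart from the other 4 by Dixon's test, where chance gives about 1 in 20. Pecam1 was 1.31 log2 RPKM (175 reads) in lumbar M5, against 2.32 to 2.72 in the other lumbar males. Kdr was 1.96 in lumbar F3, against 1.21 to 1.32 in the other lumbar females. Eng was 1.77 in the same library, against 1.12 to 1.30. Tek was 2.57 (644 reads) in sacral F7, against 1.24 to 1.55 in the other sacral females.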

How the results depend on the processing

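Because both libraries of a donor came from 1 embryo, the pairing is given by the design. With no replicate block 154 genes and 0 members were called between the spinal levels, against 978 genes and 1 member with it, and Tek had an adjusted p of 0.154. With the replicate block as a fixed effect of donor 792 genes and 1 member were called, and 0 members changed with the mitochondrial rRNA share. With no filter on low values 507 genes and 0 members were called between the spinal levels, with array weights 3064 genes and 2 members (Tek and Eng), and with a stricter filter, which left Pecam1 as the member tested, or with scaling to nuclear-encoded reads, 0 members. Leaving out a donor gave 401 to 1594 genes and 0 to 1 members. With array weights 1 member was called in males (Eng) and 1 in females (Tek), and leaving out a donor gave 0 to 1 in females. For the mitochondrial rRNA share 3 members were called, against 1 with the stricter filter and 1 in lumbar libraries alone, 0 in sacral libraries alone, 0 with array weights and 0 to 3 with a donor left out. Calls over all genes ranged over these alternatives from 21 to 364 in males (main value 67), 16 to 1969 in females (128), 14 to 228 for sex in lumbar DRG (48), 55 to 751 for sex in sacral DRG (147) and 106 to 11041 for the mitochondrial share (7646). No member differed between the sexes, in the interaction or among the 3 genes under the filter in any alternative run; sex could not be estimated with donor as a fixed effect, and the 3 genes were rerun with log2(RPKM + 1), the other scaling and each donor left out.

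Signs changed only for differences that passed no test. Scaling to nuclear-encoded reads gave a spinal difference of 0.015 for Kdr and 0.055 for Flt1. The pseudocount of 1 RPKM gave 0.0052 for Flt1 and -0.035 for Cldn5, and the mitochondrial share as a covariate gave 0.00085 for Flt1 and -0.0032 for Emcn. With a donor left out the difference lay between -0.19 and 0.00011 for Pecam1, -0.19 and 0.042 for Kdr, -0.12 and 0.048 for Flt1, -0.089 and 0.060 for Emcn, -0.33 and 0.34 for Cldn5 and -0.025 and 0.21 for Esam. The slope on the mitochondrial share with the other scaling was 0.051 for Flt1, 0.034 for Vwf and 0.12 for Eng. It was 0.0054 for Vwf in lumbar and 0.045 for Eng in sacral libraries alone, and -0.028 to 0.042 for Eng with a donor left out. Causes were not tested. Cldn5, Tie1 and Esam had as few as 2, 43 and 25 reads in a library, which limits the size of difference that could be called for them. For the 7 tested members the SE of the spinal difference was 0.12 to 0.19, beside a median of 0.13 over all genes tested.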
